A study of Mus musculus with 12 samples.

Results

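The data describe the mRNA of 4 cytochromes P450 that oxidise paracetamol (acetaminophen, APAP) in mouse liver, Cyp2e1, Cyp1a2, Cyp3a11 and Cyp2a5. They were chosen by name, matched by symbol to Ensembl gene identifiers, and are 4 of the 24187 genes in the count table. All 4 passed the filter on low counts, and so entered every test. Bulk RNA sequencing, which reads the transcripts of all cells in a tissue sample at once, was carried out on the livers of 12 C57BL/6J mice in 3 groups. Control mice (n = 3) were untreated, and their livers show the uninjured level of each mRNA. Vehicle mice (n = 5) received 350 mg/kg APAP and then PBS. hAAM mice (n = 4) received 350 mg/kg APAP and then human alternatively activated macrophages (hAAMs), which are grown from human blood monocytes and polarised with IL-4 and IL-13. By the study's methods, the mice were 10 to 12 weeks old, fasted for 12 h before APAP and were treated 16 h after it, and the APAP mice are named there as C57BL6/JOlaHsd. The methods give 36 h after APAP for the end of the experiment and a figure legend 32 h, neither of them for the sequenced livers separately, and the severe model described there used a higher APAP dose than the labels give. The labels name no engineered allele in any group, the hAAMs were human cells given to a mouse, and the sequenced tissue was a piece of about 10 mg of each liver.

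Cytochromes P450 are haem enzymes of the endoplasmic reticulum that insert 1 oxygen atom into a substrate, with electrons from P450 oxidoreductase. Most of a dose of APAP is made harmless by glucuronidation and sulfation, while P450s turn the rest into the reactive quinone imine NAPQI, which is captured by glutathione until that is used up. NAPQI then binds proteins, and hepatocytes around the central vein, where these P450s are most abundant, die first. CYP2E1 is the main enzyme of this step in the mouse, and it also oxidises ethanol. CYP1A2 is a caffeine- and arylamine-oxidising enzyme under the aryl hydrocarbon receptor (AHR). CYP3A11 is the mouse counterpart of the main human drug-oxidising CYP3A enzyme and a target of the pregnane X receptor (PXR). CYP2A5 hydroxylates coumarin and is the mouse counterpart of the human nicotine-oxidising CYP2A6.

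The promoters of the 4 genes are shown because the genes lie apart in the genome and their mRNAs were compared for moving together. In GRCm38, Cyp2e1 (ENSMUSG00000025479) lies at chr7:140763739-140774987 on the forward strand, Cyp1a2 (ENSMUSG00000032310) at chr9:57676937-57683703 on the reverse strand, Cyp3a11 (ENSMUSG00000056035) at chr5:145854426-145879964 on the reverse strand and Cyp2a5 (ENSMUSG00000005547) at chr7:26835305-26843548 on the forward strand. No other annotated gene overlaps any of them. The windows below run from 250 bases before to 50 bases after the start of each gene in RefSeq (GRCm38.p6), 5′ to 3′ on the gene's own strand, at chr7:140763569-140763868 (+) for Cyp2e1, chr9:57683606-57683905 (-) for Cyp1a2, chr5:145879805-145880104 (-) for Cyp3a11 and chr7:26835089-26835388 (+) for Cyp2a5. Capitals mark the letters TATAAA, which are those of a TATA box, and, in Cyp3a11 alone, TGAACT, which is the nuclear receptor half-site AGTTCA read on the other strand.
Cyp2e1: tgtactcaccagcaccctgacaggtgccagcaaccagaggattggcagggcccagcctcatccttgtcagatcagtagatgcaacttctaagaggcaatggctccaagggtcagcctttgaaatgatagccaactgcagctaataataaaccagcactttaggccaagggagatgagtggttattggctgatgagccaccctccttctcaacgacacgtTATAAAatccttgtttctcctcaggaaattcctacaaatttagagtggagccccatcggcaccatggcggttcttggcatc
Cyp1a2: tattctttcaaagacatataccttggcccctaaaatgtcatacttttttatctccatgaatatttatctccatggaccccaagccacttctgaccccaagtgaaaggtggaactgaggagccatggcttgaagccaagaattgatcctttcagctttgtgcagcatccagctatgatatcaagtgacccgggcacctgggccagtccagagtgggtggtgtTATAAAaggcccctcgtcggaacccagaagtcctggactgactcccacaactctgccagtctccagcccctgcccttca
Cyp3a11: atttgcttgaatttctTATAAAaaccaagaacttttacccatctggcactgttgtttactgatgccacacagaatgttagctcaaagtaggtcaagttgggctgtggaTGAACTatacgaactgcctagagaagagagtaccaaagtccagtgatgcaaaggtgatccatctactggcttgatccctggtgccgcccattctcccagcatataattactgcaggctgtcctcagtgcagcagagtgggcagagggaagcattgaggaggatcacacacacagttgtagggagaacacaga
Cyp2a5: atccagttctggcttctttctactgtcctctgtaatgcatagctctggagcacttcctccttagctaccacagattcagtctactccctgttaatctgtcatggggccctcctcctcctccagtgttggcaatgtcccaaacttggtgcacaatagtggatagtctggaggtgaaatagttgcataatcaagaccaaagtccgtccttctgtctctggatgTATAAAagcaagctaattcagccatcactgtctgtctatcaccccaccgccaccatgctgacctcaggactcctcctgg

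TATAAA was found once in each window. It stood at -31 from the start in Cyp2e1, -29 in Cyp1a2 and -29 in Cyp2a5, but at -234 in Cyp3a11, counted to its first letter. Of 32851 mouse promoter windows of this length, 13.6% hold TATAAA on either strand. AGTTCA lay at -142 in Cyp3a11 and is held by 14.0% of all windows. The letters GCGTG (the AHR core, in 32.4% of windows) and ATCAAAG (TCF/LEF, in 3.73%) were searched on both strands and were in none of the 4 windows. Only these exact letters were searched for each kind of site, so other spellings of such sites may be present. None of these motifs overlapped another.

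The livers were read to a depth of 47391650 to 74056505 counts, and each of the 4 mRNAs had at least 128 counts in every liver. Levels are given as counts per 1000000 counts of the library (CPM) after TMM scaling, whose factors lay between 0.832 and 0.859 for control and between 0.933 and 1.14 for APAP livers. The label liver was borne out by its markers, with Alb (albumin) at 52022 ± 14227 CPM (SD, n = 3) in control livers, and all 10 general hepatocyte markers were read in every group. The labels give no sex, and every liver had at least 3064 counts of Y-linked Ddx3y and at most 149 of Xist. Some libraries stood apart. Vehicle 3 and hAAM 4, from different groups, differed by 1.2 times counting noise over 13653 genes, against 2.86 or more for every other pair of livers, so results are also given without both. hAAM 3 was the APAP liver nearest to control, at 4.99 to 5.22 times counting noise from the control livers against 5.92 to 10.9 for the other APAP livers. The edgeR fold changes of the 4 mRNAs that rest on it are also given without it.

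In control livers the 4 mRNAs together took 0.42% ± 0.0963 (SD, n = 3) of all counts. They took 0.101% ± 0.055 (SD, n = 5) in vehicle and 0.173% ± 0.147 (SD, n = 4) in hAAM livers. The hAAM mean was raised by hAAM 3, at 0.375%, and the medians were 0.0926% in vehicle and 0.131% in hAAM livers. Per kilobase of exon, which allows levels to be compared between genes, Cyp2e1 was the highest of the 4 in all 12 livers. Its level per kilobase in control livers was 1590 ± 356 CPM, followed by Cyp3a11 at 225 ± 101, Cyp1a2 at 169 ± 95.6 and Cyp2a5 at 28.8 ± 1.45 (SD, n = 3). Cyp3a11 (120 to 323 CPM per kilobase) and Cyp1a2 (88.2 to 275) overlapped in control livers, so their order there was within the spread between mice, whereas Cyp2e1 lay above both and Cyp2a5 below both.

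In vehicle livers the levels per kilobase were 307 ± 199 CPM for Cyp2e1, 40.7 ± 35.9 for Cyp1a2, 37.5 ± 30.9 for Cyp3a11 and 9.25 ± 7.61 for Cyp2a5 (SD, n = 5), and the last 3 overlapped. In hAAM livers they were 512 ± 469 for Cyp2e1, 102 ± 116 for Cyp3a11, 51.2 ± 32.5 for Cyp1a2 and 13.9 ± 16.7 for Cyp2a5 (SD, n = 4). hAAM 3 raised the means of Cyp2e1 and Cyp3a11, at 1142 and 269 CPM per kilobase. The hAAM medians were 379 for Cyp2e1, 59.4 for Cyp3a11, 43.4 for Cyp1a2 and 7.75 for Cyp2a5. Within single livers, the order Cyp2e1, Cyp1a2, Cyp3a11, Cyp2a5 was seen in 6, Cyp3a11 stood before Cyp1a2 in the other 6, and among these vehicle 5 was the 1 liver with Cyp2a5 in the second place. The place of Cyp3a11 depended on its length. Its merged exons span 5093 bases and its longest transcript 2802, and per kilobase of the latter it rose to 68.1 ± 56.1 CPM in vehicle livers, above Cyp1a2 at 42.3 ± 37.2.

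**Figure D1:**
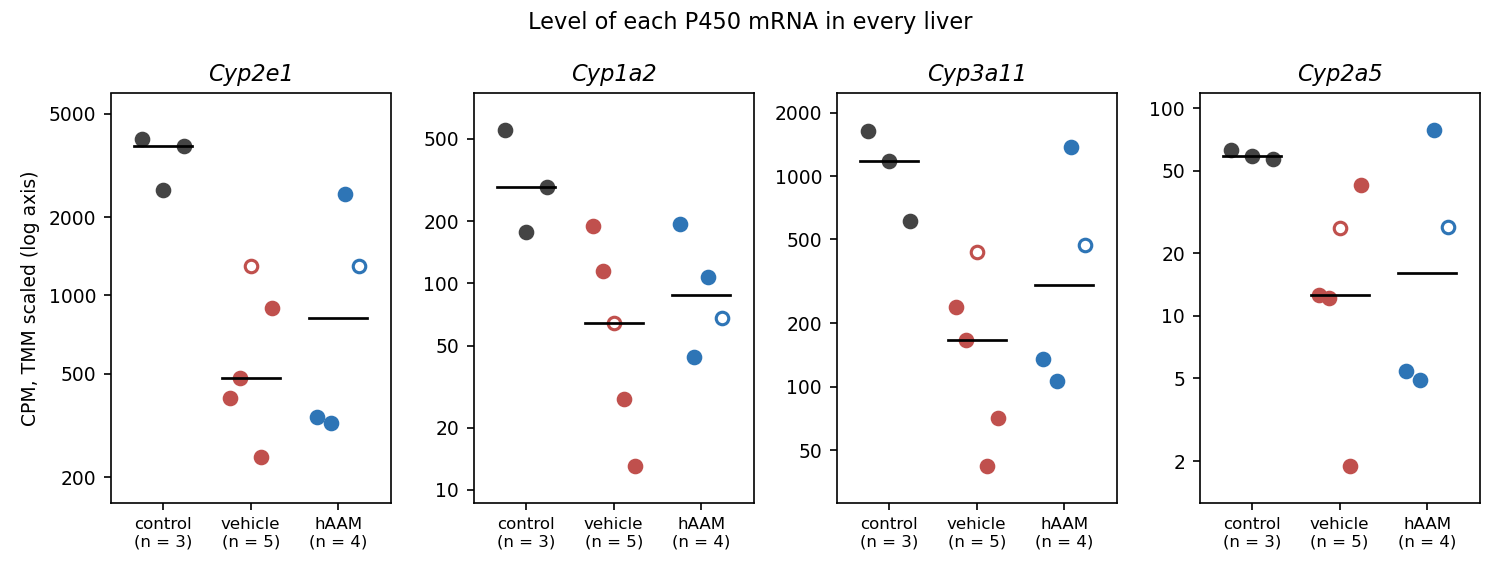
Level of the 4 mRNAs in CPM (TMM scaled, log axis, a separate range for each gene), one point per liver and a bar at the median, in control (n = 3), vehicle (n = 5) and hAAM livers (n = 4). Open circles are the near-identical libraries vehicle 3 and hAAM 4, and in each gene at least 3 of the 4 hAAM livers and 4 of the 5 vehicle livers lie below every control liver.

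The first comparison asked how far the mRNAs of the enzymes that activate APAP had fallen in injured livers given vehicle. RNA alone was read, not protein or enzyme activity. The mRNA of Cyp2e1, the main enzyme, fell 5.18-fold, that of Cyp3a11 6.01-fold and that of Cyp1a2 4.16-fold, while Cyp2a5 did not pass the test. Thus 3 of the 4 were called lower (edgeR, FDR under 0.05), where 14.8% of all 22581 genes tested were called lower and 29.8% either way. Of all genes, 3380 were called higher and 3339 lower with TMM, and 8637 and 1110 when scaled by library size alone. All 5 vehicle livers lay below every control liver for 3 of the 4, namely Cyp2e1, Cyp3a11 and Cyp2a5, against 17.3% of all genes. DESeq2 called the same 3 genes, and 34.0% of all genes. In bulk tissue, fewer cells of a type and less RNA per cell cannot be told apart.

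Cyp2e1 stood at 3992, 2555 and 3750 CPM in control 1 to 3, and at 402, 480, 1300, 239 and 892 CPM in vehicle 1 to 5. Vehicle 3 held most and vehicle 4 least, and the groups did not overlap. The log2 fold change was -2.37 (SE 0.654, 95% interval -3.8 to -0.95, edgeR FDR 0.0177), and -2.76 (FDR 0.0154) without the near-identical livers.

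Cyp3a11 stood at 1644, 1181 and 613 CPM in control livers and at 239, 167, 435, 42.2 and 71.4 CPM in vehicle 1 to 5. Its order among the vehicle livers differed from that of Cyp2e1, since vehicle 5 was among the 2 lowest for Cyp3a11 and among the 2 highest for Cyp2e1. Against control, Cyp3a11 changed by -2.59 on the log2 scale (SE 0.833, 95% interval -4.4 to -0.78, edgeR FDR 0.0347), and -3.14 (FDR 0.0255) without the near-identical livers.

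Cyp1a2 varied most among the control livers, at 553, 178 and 292 CPM, and stood at 190, 115, 64.1, 27.7 and 13.0 CPM in vehicle 1 to 5. Vehicle 1 lay above control 2, so the groups overlapped, and vehicle 5 was the lowest liver. Its log2 fold change was -2.06 (SE 0.716, 95% interval -3.61 to -0.5, edgeR FDR 0.0475). This call was at the edge of the threshold and was lost without the near-identical livers, at -1.97 (FDR 0.0941).

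Cyp2a5 was the steadiest of the 4 in control livers, at 62.9, 59.2 and 56.9 CPM, and the most scattered in vehicle livers, at 12.6, 12.2, 26.5, 1.89 and 42.7 CPM. The highest vehicle liver was 22.5 times the lowest, whereas the control livers spanned 1.1-fold. The groups did not overlap, yet with this scatter the log2 fold change of -1.64 (SE 0.881, 95% interval -3.55 to 0.28) had an edgeR FDR of 0.18, and -1.77 (FDR 0.214) without the near-identical livers. Cyp2a5 shares sequence with Cyp2a4, at 94.8% identity of the coding sequence and with 36.6% of its 50-base stretches found there, so its counts are uncertain by what was split between them, but Cyp2a4 had only 15 to 244 counts in any liver.

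Calls in this comparison depended on single livers. Of the 3, none was called without control 1 and 1 was called without vehicle 2, vehicle 4 or vehicle 5. Cyp3a11 lost its call without any one of control 1, control 2, vehicle 1, vehicle 2, vehicle 4 and vehicle 5 (edgeR FDR 0.0588 to 0.106), and kept it without control 3 (FDR 0.0466) or vehicle 3 (FDR 0.0178). Cyp1a2 lost its call without any control or vehicle liver but control 2 (FDR 0.0496) and vehicle 1 (FDR 0.0212).

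In hAAM livers the 4 mRNAs were also lower on average than in control livers, but none of them passed the test. 0 of 4 were called (edgeR), against 20.7% of all genes either way and 9.96% lower, and 2 of 4, Cyp2e1 and Cyp1a2, had an unadjusted p under 0.05, as did 35.2% of all genes. DESeq2 also called 0 of 4, against 25.8% of all genes. Cyp2e1 was the 1 gene with all 4 hAAM livers below every control liver, a pattern held by 14.2% of all genes.

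Cyp2e1 stood at 342, 322, 2464 and 1293 CPM in hAAM 1 to 4. hAAM 3 lay just under the lowest control liver, and hAAM 1 and hAAM 2 within the range of the vehicle livers. The log2 fold change to control was -1.63 (SE 0.693, 95% interval -3.14 to -0.13, edgeR FDR 0.114), and -1.71 (FDR 0.136) without the near-identical livers. Without hAAM 3 it was -2.4 and passed the test (edgeR FDR 0.0245). hAAM 3 was the highest hAAM liver for Cyp2e1, Cyp3a11 and Cyp2a5, so leaving it out had to enlarge their falls. This pass is therefore no separate evidence of a fall.

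Cyp3a11 stood at 136, 107, 1369 and 470 CPM in hAAM 1 to 4. hAAM 3 lay above 2 of the control livers and the other hAAM livers below all of them. Its log2 fold change to control was -1.14 (SE 0.875, 95% interval -3.04 to 0.76, edgeR FDR 0.38), and -2.27 (FDR 0.066) without hAAM 3. Without the near-identical livers it was -1.09 (edgeR FDR 0.447).

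Cyp1a2 stood at 193, 43.9, 107 and 67.7 CPM in hAAM 1 to 4. Here hAAM 1, not hAAM 3, was the highest and lay above control 2. Against control this gave a log2 fold change of -1.73 (SE 0.763, 95% interval -3.39 to -0.07, edgeR FDR 0.128). Without the near-identical livers it was -1.57 (edgeR FDR 0.239), and its unadjusted p of 0.108 was no longer under 0.05.

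Cyp2a5 stood at 5.45, 4.89, 78.6 and 26.7 CPM in hAAM 1 to 4. hAAM 3 exceeded every control liver, while hAAM 1 and hAAM 2 kept 9.13% and 8.19% of the control mean. The log2 fold change to control was -1.05 (SE 0.934, 95% interval -3.08 to 0.98, edgeR FDR 0.457), and -2.27 (FDR 0.0846) without hAAM 3. Without the near-identical livers it was -1.0 (edgeR FDR 0.556).

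**Figure D2:**
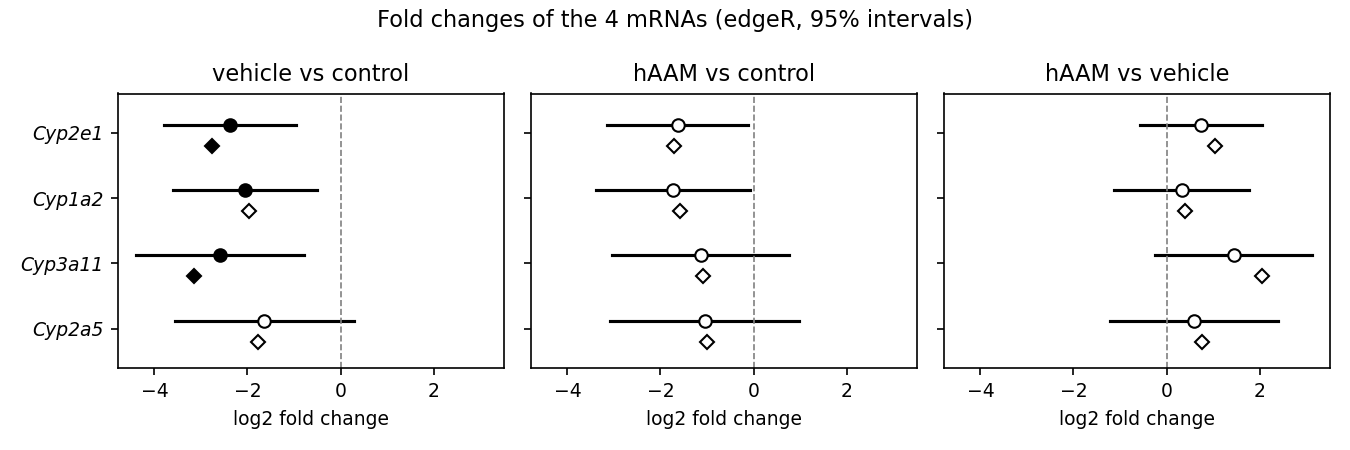
log2 fold change of each mRNA (edgeR) in 3 comparisons, as circles with 95% intervals for all 12 livers and as diamonds without vehicle 3 and hAAM 4. Filled symbols had an FDR under 0.05, which only Cyp2e1, Cyp1a2 and Cyp3a11 reached in vehicle vs control (all livers), and every interval of hAAM vs vehicle crosses 0.

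Whether hAAMs changed these mRNAs was asked by comparing hAAM with vehicle livers. The mean was higher with hAAMs for each of the 4, at 1105 ± 1013 against 662 ± 430 CPM for Cyp2e1, 520 ± 589 against 191 ± 157 for Cyp3a11, 103 ± 65.5 against 82.0 ± 72.2 for Cyp1a2 and 28.9 ± 34.6 against 19.2 ± 15.8 for Cyp2a5 (SD, n = 4 and 5). The groups overlapped for every one of them (1.40% of all genes did not overlap), and 2 of the 4 hAAM livers lay above the vehicle median for Cyp2e1, Cyp3a11 and Cyp2a5, and 3 of the 4 for Cyp1a2. None was called by edgeR or, with all livers, had an unadjusted p under 0.05. No gene at all was called (0.00% of 22581, with 5.02% at an unadjusted p under 0.05), and DESeq2 called 1 gene (0.00443%), which was none of these P450s.

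The intervals were wide. Cyp3a11 had the largest log2 fold change between treatments, 1.45 (SE 0.775, 95% interval -0.24 to 3.13, edgeR FDR 0.966). It was 0.74 (95% interval -0.58 to 2.06, FDR 0.974) for Cyp2e1, 0.59 (-1.21 to 2.39, FDR 0.99) for Cyp2a5 and 0.33 (-1.13 to 1.78, FDR 0.991) for Cyp1a2. Rises of 4-fold in Cyp2e1 and of over 8-fold in Cyp3a11 therefore lay within the intervals, the upper bounds being 4.16-fold and 8.77-fold. Without the near-identical livers the value for Cyp3a11 was 2.05 (edgeR FDR 0.72), and its unadjusted p was then under 0.05. Without hAAM 3 it fell to 0.32, that of Cyp2e1 to -0.02 and that of Cyp2a5 to -0.64 (edgeR FDR 1.0 for each), and without hAAM 1 that of Cyp1a2 turned to -0.17.

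The ratio of 2 of the mRNAs within a liver asked whether they changed by different amounts, over 6 pairs and 3 comparisons. None of the 18 differences passed (exact permutation tests, two-sided, Benjamini-Hochberg p = 0.971 for each). The differences ran from -0.70 to 0.89 on the log2 scale, both for Cyp3a11 over Cyp2a5, in vehicle vs control and in hAAM vs vehicle (exact permutation p = 0.302 for the latter). Without vehicle 5 they were -0.03 and 0.21. The log2 ratio was 0.74 in that liver, against 3.77 to 4.45 in the other vehicle livers, 3.43 to 4.71 in control and 4.12 to 4.63 in hAAM livers. Vehicle 5 had kept 71.5% of the control mean of Cyp2a5 and 26.0% of that of Cyp2e1, but 6.23% of that of Cyp3a11 and 3.81% of that of Cyp1a2. It also had the highest summed levels of all livers for B and plasma cell markers (60.9 CPM) and for red cell genes (1999 CPM). Their part in these ratios was not tested.

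Each mRNA was also set against the mean log2 CPM of 10 general hepatocyte genes of the same liver, which ran from 11.78 to 12.35 over the 12 livers. Relative to them, vehicle livers were lower than control by 5.33-fold for Cyp2e1, 6.71-fold for Cyp3a11, 4.89-fold for Cyp1a2 and 4.12-fold for Cyp2a5. The exact permutation p was 0.0179 for Cyp2e1, the smallest these groups allow, 0.0357 for Cyp3a11 and 0.0714 for Cyp1a2 and Cyp2a5. None of the 12 such tests passed after adjustment (adjusted p = 0.171 for each of these). Even with 0.0179 for all 4 genes, these tests could not have passed on their own after adjustment over 12. No conclusion is therefore drawn from this outcome. hAAM livers were lower than control by 4.13-fold for Cyp2e1, 3.26-fold for Cyp1a2, 3.21-fold for Cyp3a11 and 3.65-fold for Cyp2a5. The exact permutation p was 0.0571, 0.0857, 0.143 and 0.229, in this order. Without single livers, the log2 differences ran from -2.53 to -1.68 for Cyp2e1 and from -2.1 to -1.37 for Cyp1a2. They ran from -2.32 to -1.26 for Cyp3a11 and from -2.58 to -1.4 for Cyp2a5. Between hAAM and vehicle livers the difference for Cyp3a11 was 1.06 on the log2 scale (exact permutation p = 0.286). It ran from 0.42 to 1.48 when single livers were left out.

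Among the 9 APAP livers, Cyp2e1 and Cyp2a5 varied together, while no pair with Cyp1a2 passed the test. Across these livers, Cyp2e1 and Cyp2a5 had a Pearson r of 0.933 (permutation p = 0.000284, adjusted over 6 pairs 0.0017) and a Spearman rho of 0.917 (permutation p = 0.00131). The r was 0.909 without the 2 livers farthest from the median of Cyp2e1, hAAM 3 and vehicle 3, and 0.943 without the near-identical livers. This closeness was not particular to the pair. Across the same livers, Cyp2e1 had an r of 0.959 with Apob, 0.958 with Ugt1a1 and -0.954 with Ccr2, though only 0.276 with Glul.

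Cyp2e1 and Cyp3a11 had an r of 0.821 (permutation p = 0.0064, adjusted 0.0192) and a rho of 0.8 (permutation p = 0.0138), but this rests on a few livers. The r was 0.578 (permutation p = 0.179) without the 2 farthest livers and 0.774 (permutation p = 0.0623) without the near-identical ones. Cyp3a11 and Cyp2a5 had an r of 0.732 (permutation p = 0.0253, adjusted 0.0505) and a rho of 0.65, and the r was 0.268 without hAAM 3 and vehicle 4.

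Cyp1a2 had an r of 0.509 with Cyp3a11 (permutation p = 0.162), -0.0143 with Cyp2e1 (p = 0.971) and -0.00293 with Cyp2a5 (p = 0.994, permutation). The last value rests on a few livers, since the r was 0.602 (permutation p = 0.152) without the 2 farthest, vehicle 5 and hAAM 1, whereas those with Cyp3a11 and Cyp2e1 were 0.565 and -0.211 without their 2 farthest. Its highest APAP livers, hAAM 1 and vehicle 1 at 193 and 190 CPM, were among the lower ones for Cyp2e1, at 342 and 402 CPM. These 6 relations share the same 9 livers and are not independent of each other.

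**Figure D3:**
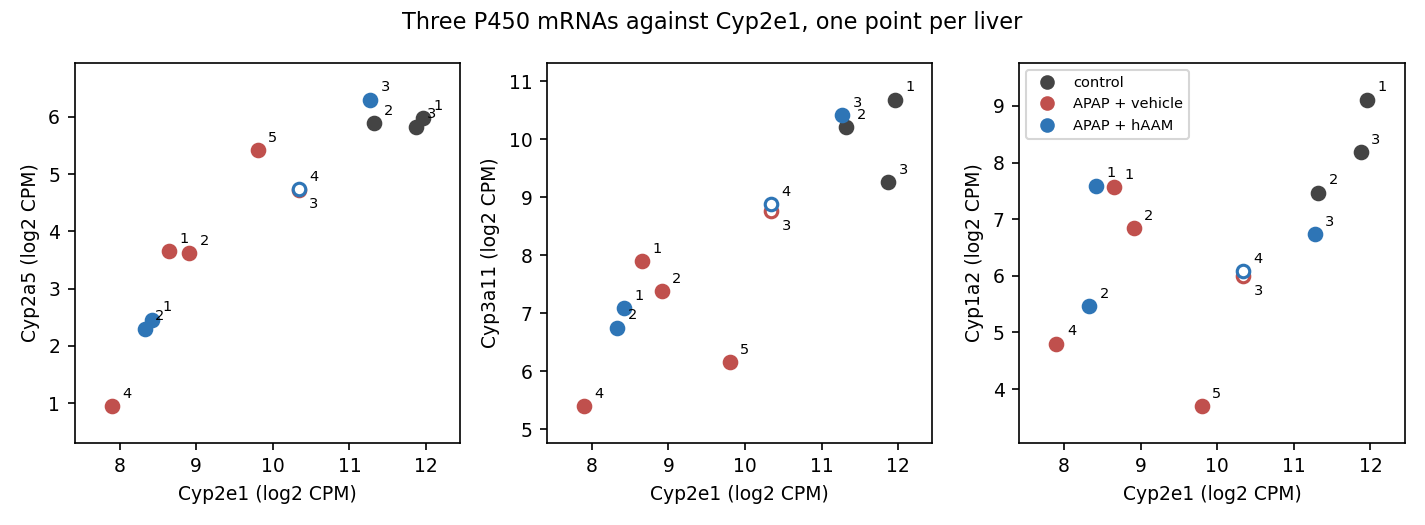
log2 CPM of Cyp2a5, Cyp3a11 and Cyp1a2 against log2 CPM of Cyp2e1, one point per liver with its replicate number, control in grey, vehicle in red and hAAM in blue, open circles for the near-identical libraries. The 9 APAP livers line up for Cyp2a5 (r = 0.933) and not for Cyp1a2 (r = -0.0143), and vehicle 5 lies apart for Cyp3a11 and Cyp1a2.

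The genes most like each P450 across the same 9 livers were sought, as a description, among the 11164 genes whose mean log2 CPM reached 2. As the highest of so many values over 9 livers, their r are raised by the selection and were not tested. They were Cyp2c37, another P450 (r = 0.99), Slc17a1 (0.985) and Pex13 (0.981) for Cyp2e1. For Cyp3a11 they were Cyp27a1, the sterol 27-hydroxylase of bile acid synthesis (0.992), 9330162G02Rik (0.992) and Acsm1 (0.99), for Cyp2a5 Tshz2 (0.981), Pgm1 (0.98) and Slc19a2 (0.967), and for Cyp1a2 Arf5 (0.957), Hdac10 (0.944) and Sdc1 (0.924). Cyp2c37 fell with APAP like Cyp2e1, by 3.21 on the log2 scale in vehicle livers (edgeR FDR 0.0094), whereas Tshz2 and Arf5 had log2 fold changes of -0.14 and -0.22 (edgeR FDR 0.417 and 0.193).

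The close relatives of the 4 did not all follow them, and the counts of this and the following lists stand against 29.8% of all genes called in vehicle livers (14.8% lower) and 20.7% in hAAM livers (9.96% lower). Of 12 Cyp1a, Cyp2a and Cyp3a relatives, 4 were called lower and 2 higher in vehicle livers (median log2 fold change -0.11, edgeR) and 0 lower and 2 higher in hAAM livers, the latter under the share of all genes. Cyp2a12, a steroid-hydroxylating relative of Cyp2a5, rose from 299 ± 8.49 CPM in control to 439 ± 30.4 in vehicle livers (log2 fold change 0.55, SE 0.0873, edgeR FDR 0.00115) and 410 ± 21.4 in hAAM livers (0.46, FDR 0.00601). Cyp2a22 rose with it, from 7.66 ± 0.148 to 12.5 ± 0.756 CPM in vehicle livers (0.71, FDR 0.0012). Every liver given APAP lay above every control liver for Cyp2a12 and Cyp2a22, the reverse of Cyp2a5 in vehicle livers.

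The relatives called lower were Cyp3a16, Cyp3a41a, Cyp3a41b and Cyp3a44, with at most 140 counts each against 2854 or more for Cyp3a11 in any liver. Their log2 fold changes in vehicle livers were -2.58, -2.37, -2.46 and -2.15 (edgeR FDR 0.0353, 0.0272, 0.0226 and 0.0486), near that of Cyp3a11. They are 92.8% to 95.2% identical to Cyp3a11 over the coding sequence, so reads may have been split among them, and their values are uncertain. The call of Cyp3a44 was lost without the near-identical livers (edgeR FDR 0.0528), with library size or upper quartile scaling (FDR 0.0529 and 0.0532) and with robust estimation (FDR 0.0535). Cyp1a1, the AHR-driven relative of Cyp1a2, had 49 to 290 counts in any liver and stood at 1.94 ± 0.781 CPM in control and 2.07 ± 1.22 in vehicle livers (edgeR FDR 0.921).

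P450s need electrons and haem, and 15 genes of this supply were read. In vehicle livers 3 were called higher and 6 lower (edgeR, median log2 fold change -0.16), and in hAAM livers 1 and 3, near the 20.7% of all genes. Por, the oxidoreductase that feeds every microsomal P450, went opposite to the 4 P450 mRNAs. It went from 170 ± 25.7 CPM in control to 292 ± 49.4 in vehicle livers (log2 fold change 0.78, SE 0.214, edgeR FDR 0.0173). In hAAM livers it stood at 218 ± 62.4 CPM (0.36, edgeR FDR 0.269). The call in vehicle livers was lost without control 1 (0.66, edgeR FDR 0.075) and with the replicate number as a block in the fit (0.71, FDR 0.0785). Cyb5r3, which reduces cytochrome b5, fell by 0.70 on the log2 scale in vehicle (edgeR FDR 0.00523) and by 0.54 in hAAM livers (FDR 0.0312). Pgrmc1, a haem-binding partner of P450s, fell by 0.65 in vehicle livers (edgeR FDR 0.0341), a call lost with that block (-0.58, FDR 0.0855).

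Of 8 genes of haem synthesis enzymes, 4 fell in vehicle livers, among them Alad (log2 fold change -0.53), Uros (-0.49) and Fech (-0.39), with edgeR FDRs of 0.0244, 0.00775 and 0.0296. Alas1, the rate-limiting first enzyme, was not among them, at 214 ± 39.1 CPM in control, 323 ± 92.9 in vehicle and 363 ± 126 in hAAM livers (edgeR FDR 0.142 and 0.0966 against control). Of the haem-degrading genes, the biliverdin reductases Blvra (log2 fold change 0.62, FDR 0.0133) and Blvrb (0.48, FDR 0.0363) rose in vehicle livers, and Hmox1, haem oxygenase, stood at 61.0 ± 53.9 CPM in control and 61.2 ± 27.3 in vehicle livers (FDR 0.996). These modest falls depend on scaling: by library size alone, which moved the median of all genes to 0.357 in vehicle livers, Alad, Uros, Fech and Pgrmc1 were no longer called and Alas1 was called higher (0.93, edgeR FDR 0.014, and 1.04, FDR 0.0146, in hAAM livers), whereas the values of Cyp2e1 and Cyp3a11 were -2.05 and -2.28 (edgeR FDR 0.0162 and 0.0317) and Cyp1a2, at -1.71 (FDR 0.0632), was no longer called.

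Of 16 regulators of these genes, 6 were called lower and 1 higher in vehicle livers (edgeR, median log2 fold change -0.29) and 5 lower in hAAM livers, where 14.8% and 9.96% of all genes were called lower. Ahr, the receptor that drives Cyp1a2, fell by 0.80 on the log2 scale (FDR 0.0025) and its partner Arnt by 0.48 (FDR 0.000809) in vehicle livers, and by 0.68 (FDR 0.011) and 0.41 (FDR 0.00411) in hAAM livers. Hnf4a fell by 0.38 (FDR 0.0276), Cebpa by 0.47 (FDR 0.0155) and Rxra, the partner of PXR and CAR, by 0.39 (FDR 0.0197) in vehicle livers. By library size alone, only Ahr of these kept its call in vehicle livers. There Arnt was at -0.13 (edgeR FDR 0.281), Hnf4a at -0.03 (FDR 0.791), Cebpa at -0.13 (FDR 0.33) and Rxra at -0.05 (FDR 0.674), and in hAAM livers Ahr was at -0.38 (FDR 0.0757) and Arnt at -0.10 (FDR 0.451). Nr1i2, which encodes PXR, had 55.5 ± 2.15 CPM in control and 59.4 ± 12.4 in vehicle livers (edgeR FDR 0.728), and Nr1i3, which encodes CAR, had 18.9 ± 4.8 and 27.0 ± 12.4 CPM (FDR 0.397). The 1 regulator that rose in vehicle livers was Dbp, a clock-driven factor, from 1.27 ± 0.848 to 9.14 ± 2.6 CPM (log2 fold change 2.85, FDR 0.00567), and the hour at which livers were taken is not given in the labels.

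Of 9 other receptor targets, Cyp2c29 and Ces2a fell in vehicle livers and none rose (edgeR), a share not far from the 14.8% of all genes called lower. Cyp2c29, a CAR and PXR target, dropped 15.4-fold, from 635 ± 128 to 41.2 ± 41.1 CPM (log2 fold change -3.95, SE 1.05, FDR 0.0149). The call of Ces2a was lost with library size scaling (-0.76, edgeR FDR 0.0732). Slco1a4, a hepatic uptake transporter, went from 18.5 ± 7.79 in control to 62.1 ± 42.2 CPM in hAAM livers (1.75, edgeR FDR 0.0315), a call lost without the near-identical livers (1.76, FDR 0.0545) and with only those groups fitted (FDR 0.0659). None of the 4 AHR targets listed besides Cyp1a2 was called in either APAP group.

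Genes of enzymes that clear APAP or NAPQI were read in the same livers. Of 14, 3 were called lower and 1 higher in vehicle livers (edgeR, median log2 fold change -0.31, against -2.21 for the 4 P450s and 0.012 for all genes), and 1 each way in hAAM livers. These counts are near or under the shares of all genes called, 29.8% in vehicle and 20.7% in hAAM livers. Ugt1a6b and Ugt1a9, which glucuronidate phenols, fell by 0.55 (FDR 0.016) and 1.68 (FDR 0.0206) in vehicle livers, and Gstt1, a glutathione transferase, by 0.70 (FDR 0.0191). By library size alone, Ugt1a6b was at -0.21 (edgeR FDR 0.187) and Gstt1 at -0.37 (FDR 0.0922), and neither was called. Gstp2 was at the edge of the threshold in hAAM livers, at -0.81 (edgeR FDR 0.0496), and lost its call under 7 alternatives besides those without single livers, with FDRs of 0.0501 to 0.161. Nqo1, the quinone reductase and an NRF2 target, rose from 2.15 ± 0.749 CPM to 5.75 ± 0.762 in vehicle livers (log2 fold change 1.42, FDR 0.00131) and to 4.63 ± 1.05 in hAAM livers (1.11, FDR 0.00839).

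The 4 P450s are enzymes of the pericentral zone, so markers of both ends of the liver lobule were read beside them. Of 9 pericentral hepatocyte genes, 8 fell in vehicle livers (edgeR, median log2 fold change -3.21) and 8 in hAAM livers (-2.72), more than the median of the P450s in both (-2.21 and -1.39), with 14.8% and 9.96% of all genes called lower. Glul, glutamine synthetase, fell 19.4-fold in vehicle livers, from 972 ± 293 to 50.2 ± 9.33 CPM (log2 fold change -4.27, SE 0.244, FDR 2.48e-06), and stood at 54.2 ± 15.1 in hAAM livers (-4.17, FDR 1.4e-05). Oat fell by 3.52 (FDR 0.000201), Axin2, a Wnt target, by 1.97 (FDR 0.000942) and Rgn by 2.16 (FDR 0.00648) in vehicle livers. The summed level of the 9 genes was 1714 to 2618 CPM in control, 170 to 366 in vehicle and 200 to 592 in hAAM livers, and hAAM 3, which had 71.8% of the control mean of Cyp2e1, was at 592.

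Of 12 periportal genes, 1 was called higher and 1 lower in vehicle livers (edgeR, median log2 fold change 0.08), and of the 10 general hepatocyte genes 1 each way (-0.12), both under the 29.8% of all genes called. Cyp2f2, a P450 of the periportal zone, fell by 1.58 (FDR 0.0195) and Sds, serine dehydratase, rose by 1.33 (FDR 0.024) in vehicle livers. Their summed levels overlapped between groups, at 9317 to 11684 CPM in control, 7078 to 13129 in vehicle and 7603 to 17722 in hAAM livers for the periportal genes, and at 95112 to 122772, 96875 to 123871 and 98576 to 126338 for the general ones. Markers of monocytes and macrophages moved the other way from the P450s. Of 7, 5 were called higher in each APAP group, Cd68 among them (log2 fold change 2.21 and 2.09, edgeR FDR 4.44e-05 and 0.000127), and their summed level was 81.5 to 91.3 CPM in control, 160 to 290 in vehicle and 160 to 359 in hAAM livers. All 4 haemoglobin genes, markers of red cells, were called higher in vehicle livers (Hba-a1, Hba-a2, Hbb-bs and Hbb-bt, median log2 fold change 2.52) and none in hAAM livers (2.22), with a summed level of 51.9 to 152 CPM in control, 190 to 1999 in vehicle, highest in vehicle 5, and 195 to 692 in hAAM livers. Of 5 stellate cell markers, Col1a1 and Acta2 rose in both APAP groups (sum 262 to 348 CPM in control, 364 to 566 in vehicle and 352 to 702 in hAAM livers), and of 5 endothelial markers Lyve1 rose in both and Pecam1 in vehicle livers (256 to 281, 280 to 347 and 261 to 327 CPM). Clec4g, another endothelial marker, had log2 fold changes of -0.58 and -0.67 (edgeR FDR 0.0598 and 0.0532), and Kdr of -0.10 and -0.13. The part of these shifts in the lower P450 mRNA levels was not tested.

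**Figure D4:**
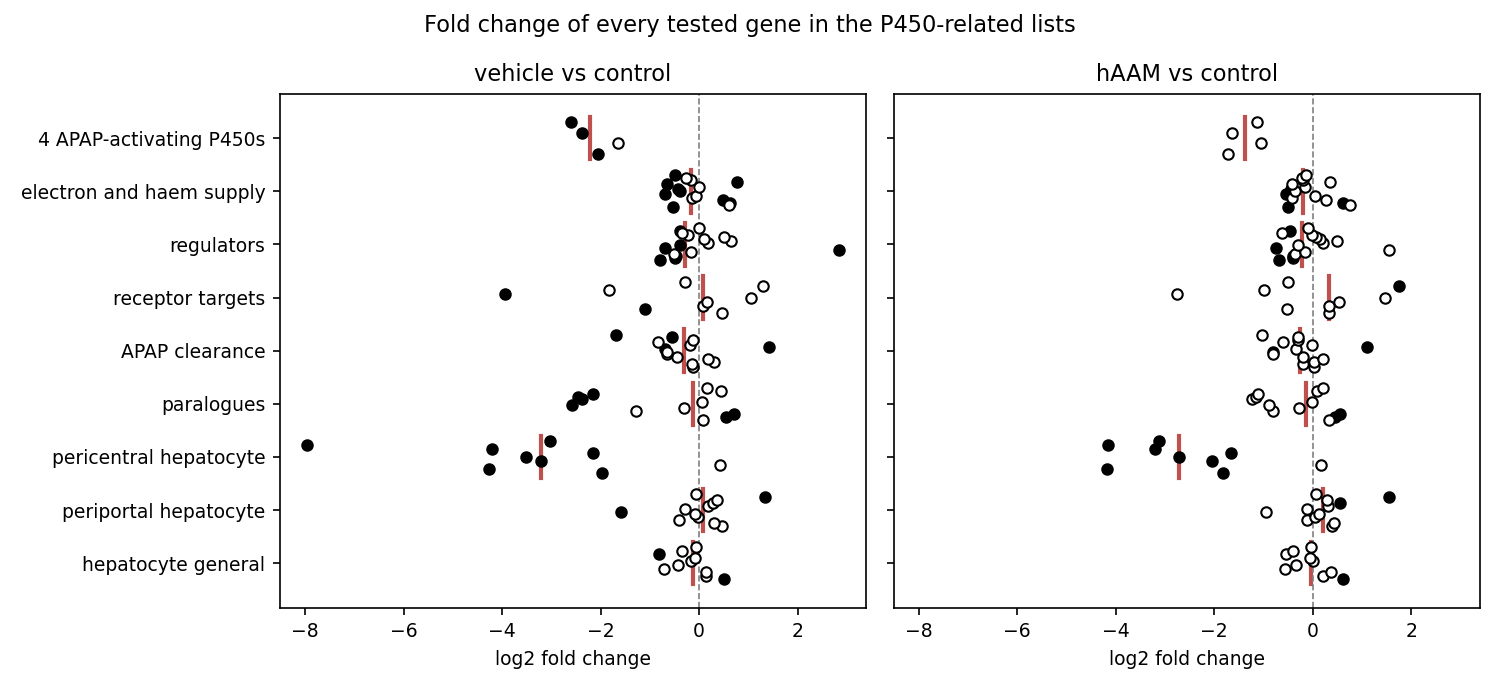
log2 fold change (edgeR) of every tested gene in 9 lists, vehicle vs control on the left and hAAM vs control on the right, filled where the FDR was under 0.05, with a red bar at each list's median. The 4 P450s have medians of -2.21 and -1.39, below those of their electron, haem, regulator and clearance genes and above that of the pericentral genes.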

How the data were processed

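Liver RNA of 12 mice was sequenced from rRNA-depleted, directional libraries. The authors trimmed paired-end reads with Cutadapt (4.6), mapped them to GRCm38 by STAR (2.7.1a) and used summarizeOverlaps to count reads in Ensembl genes. The counting mode and strand setting are not given in the sources used here. The deposited values are raw read counts, not normalized, for 24187 genes, the lowest with 15 counts in all. The labels' protocol names 14 libraries, and 12 samples are analysed here.

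Symbols were taken from GENCODE M21 on GRCm38 for 24128 genes, and 59 have none. Counts were filtered with filterByExpr by group at its default settings, which left 22581 genes, scaled with TMM and fitted with edgeR 4.0.16 (R 4.3.3) in one quasi-likelihood model of 3 groups, with two-sided tests and Benjamini-Hochberg adjustment over all genes at a threshold of 0.05 (biological coefficient of variation 0.214). A prior count of 2 was used for log2 CPM. The study used DESeq2 for its comparisons, and DESeq2 1.42.0 was run as an alternative. Ratios between members and levels relative to 10 hepatocyte genes were compared with exact permutation tests over livers, and correlations were tested by permutation. In counts simulated for vehicle vs control over 22581 genes, 95 of 100 genes made to change 4-fold were called by edgeR, as were 64 of 100 made to change 2-fold, which describes genes of average scatter and not the members, whose livers scatter more. The edgeR tests set differences between groups against the spread between single livers, with the estimate of that spread shared across genes. Counting error is small beside this spread for the 4 P450s. It is not small for genes with few counts, such as Cyp3a16, with as few as 2 in a vehicle liver.

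Genes named are the 4 members, genes of lists written by role (electron and haem supply, regulators, receptor targets, APAP clearance, relatives, cell markers), and the 3 genes most like each member. The members and lists were chosen with earlier results of these data known, and some items of the lists are counted but not reported here by name. Promoter sequences are from RefSeq, where all 4 members matched. Alternatives changed the tool, scaling, filter, spread estimate and livers.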

Additional observations from a re-analysis of the deposited data

Results flagged for a closer look

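The log2 ratio of Cyp3a11 over Cyp2a5 was 0.74 in vehicle 5, the lowest vehicle liver, and its gap to the next liver was 0.816 of the group's whole range (Dixon's critical value 0.71 for 5 samples). Of 22 sets of values tested in this way, 1 had such a liver, and chance alone gives about 1 in 20.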

How the results depend on the processing

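The count of 3 P450s called in vehicle vs control ran from 0 to 3 when single livers were left out. Cyp2e1 was called in vehicle vs control under every alternative but 1, with a range of -2.77 to -2.16 without single livers and an FDR of 0.05 without control 1. Cyp3a11 ranged from -3.14 to -2.23, with its call lost in 6 of 12 such fits, and Cyp1a2 from -2.63 to -1.52, with its call lost in 8 of 12. Cyp1a2 lost its call with library size scaling (-1.71), with only the 2 groups compared (-2.05), with robust estimation (-2.06) and with hAAM 4 and vehicle 3 left out (-1.97). In hAAM vs control the count of P450s called ran from 0 to 1 and Cyp2e1 from -2.4 to -1.33. In hAAM vs vehicle the ranges were -0.02 to 1.14 for Cyp2e1, -0.17 to 0.91 for Cyp1a2 and -0.64 to 1.12 for Cyp2a5, with a change of sign without hAAM 3, hAAM 1 and hAAM 3, respectively. Library size scaling turned Uros to 0.17 and Hnf4a to 0.00 in hAAM vs control. Of the 7 lists of supply, regulator, receptor target, clearance, relative, pericentral and periportal genes, 38 genes were called in vehicle vs control (22 to 40 without single livers) and 24 in hAAM vs control (12 to 28, and 15 with only the 2 groups compared). Of 46 genes besides the P450s, from these and the other marker lists, followed singly and called in vehicle vs control, 12 lost their call with library size scaling and 20 with the replicate block, and of 26 in hAAM vs control 7 and 6. The most were lost without control 1 in vehicle vs control (22) and without control 3 in hAAM vs control (15), and 10 were lost in the latter with only the 2 groups compared. The pairs of P450s that correlated numbered 2, and 1 to 3 without single livers, an alternative chosen after seeing the data, and 1 without the near-identical livers. The r of Cyp1a2 ranged from -0.232 to 0.136 with Cyp2e1 and from -0.336 to 0.369 with Cyp2a5, and the latter was 0.00353 without the near-identical livers. The cause of these changes was not tested.

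The replicate numbers recur across groups but did not pair the livers, since same-numbered livers deviated together with correlations of -0.458 to 0.385 and 2 of 11 correlated best with their own number. With the replicate block, Cyp3a11 was -2.69 in vehicle vs control (FDR 0.0676), 25 genes of the lists were called there, and the calls over all genes went from 6719 to 4253 in vehicle vs control and from 4666 to 2959 in hAAM vs control.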
